A study of Mus musculus with 6 samples.

Results

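A set of 10 genes that move sodium, chloride, potassium and bicarbonate across the colonic epithelium were followed in colon RNA of mice aged 56 days. They were chosen by name, and all 10 were found among the 54532 genes of the deposited table. The 6 libraries came from C57BL/6 mice, 3 labelled IL10-/- and 3 labelled wild type (WT). IL10-/- mice lack interleukin 10, a cytokine that restrains immune responses, and serve as a common model of colitis. RNA was taken from whole colon, so fewer cells of a type and less RNA per cell cannot be told apart. The sources used here do not give the mutant allele, the part of the colon or the number of mice behind a library. The p-values therefore reflect spread among libraries, which may be technical.

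Colonocytes absorb sodium either through the exchangers NHE2 (Slc9a2) and NHE3 (Slc9a3), which swap it for protons, or through ENaC, a channel built from the subunits encoded by Scnn1a, Scnn1b and Scnn1g and induced by aldosterone. Slc26a3 (DRA) takes up chloride in exchange for bicarbonate beside the sodium exchangers. Secretion runs the other way: Slc12a2 (NKCC1) loads chloride into the cell from the blood side and Cftr releases it into the lumen. Atp12a encodes the catalytic subunit of the colonic proton-potassium pump, and Best2 a bicarbonate-permeable channel of colonic goblet cells.

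Values are FPKM, fragments relative to gene length and to a library size scaled by the authors. Fold changes are differences of mean log2(FPKM + 1), IL10-/- minus WT; the added 1 makes changes of weakly expressed genes look smaller. They were tested with limma over the 12668 genes with a mean of at least 1 FPKM, and a gene is called changed at a Benjamini-Hochberg adjusted p under 0.05. Of these genes 23 (0.182%) were called, 23 higher and 0 lower, while 510 had lower values at an unadjusted p under 0.05. Of the 10 ion transport genes 9 passed the filter and 0 were called, although 3 had higher values at an unadjusted p under 0.05 and 0 had lower ones. Of these 3, which were Slc9a3, Scnn1a and Scnn1b, the last was tested only because its IL10-/- values lifted its mean over the filter. Over all tested genes 6.14% were higher and 4.03% lower at that level, 10.2% in either direction. An exact permutation test of 3 against 3 libraries cannot go below p = 0.1.

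Recovered reads amounted to between 13107941 and 15797928 per library. Il10 itself was at 13.8, 10.6 and 14.5 FPKM in IL10-/- libraries 1 to 3, against 0.757, 0.173 and 0.177 FPKM in WT libraries 1 to 3. The targeted gene was thus higher in the libraries labelled IL10-/- (adjusted p = 0.0092), and reads over the whole gene do not show which part is deleted, so this value does not check the labels. IL10-/- and WT are used below as the names of the libraries as labelled, and every direction rests on those labels. The 12 epithelial markers, among them Epcam, Krt8 and Cdh1, summed to 13757, 12418 and 9623 FPKM in IL10-/- libraries and to 6440, 12983 and 2537 FPKM in WT libraries. All 12 had positive fold changes (median 0.83) and 0 were called. The 10 smooth muscle markers summed to 1274, 210.5 and 1139 FPKM in IL10-/- libraries and to 1736, 1623 and 10877 FPKM in WT libraries. All 10 had negative fold changes (median -2.13) and 0 were called. For 9 of the 10 every IL10-/- library lay below every WT library, as for 7.89% of all tested genes. WT library 3 held the least epithelial and the most muscle RNA, and mitochondrial genes took 43.4% of its reads. WT library 2 stood apart in another way. Its 8 surface colonocyte markers summed to 44871 FPKM, against 2384 to 11386 FPKM in the other 5 libraries. Its 8 posterior Hox genes, which mark the hindgut end, summed to 5.74 FPKM, against 28.0 to 95.0 FPKM elsewhere. Of the 8 small intestine markers Fabp2 reached 2534 FPKM in WT library 2, while Apoa4 was at 0 reads and Lct and Sis were near 0 in all 6 libraries. Values without a library or relative to the epithelial markers are therefore given beside the results they move. Each tested gene was also fitted with the mean of the epithelial or of the smooth muscle markers as a covariate, and 0 of the 9 ion transport genes were called in either fit. With the epithelial covariate the log2 fold changes were 2.92 for Slc9a3, 1.34 for Scnn1a, 1.18 for Scnn1b, -2.60 for Slc26a3, -1.04 for Slc9a2, 1.52 for Slc12a2, 0.29 for Cftr, 2.78 for Atp12a and 0.61 for Best2. With the smooth muscle covariate they were 2.72 for Slc9a3, 0.79 for Scnn1a, 0.74 for Scnn1b, -2.14 for Slc26a3, -0.74 for Slc9a2, 1.12 for Slc12a2, -0.12 for Cftr, 1.45 for Atp12a and -0.86 for Best2. Set beside the values without a covariate below, the sign turned for Slc9a2 in both fits and for Cftr and Best2 in the second. The smooth muscle mean of log2(FPKM + 1) was 5.63, 3.46 and 5.53 in IL10-/- libraries, against 6.11, 6.05 and 8.53 in WT libraries. It was thus lower in every IL10-/- library, so that fit cannot tell genotype and muscle RNA apart. Over all 12668 tested genes it called 1.

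The genes differ in the letters just before their start sites. RefSeq promoter windows on GRCm38.p6 were held for 5 of the 10 genes, and 4 are shown. They are those of the exchangers Slc9a3 and Slc26a3 and of the neighbouring ENaC genes Scnn1b and Scnn1g, which lie 96562 bases apart on chromosome 7. A link of these letters to the fold changes was not tested. Each line gives the 150 bases before the start on the plus strand, 5′ to 3′, and capitals mark a GC box (GGGCGG on either strand) or a TATA box (TATAAA on either strand).
Slc9a3 (chr13:74121263-74121412): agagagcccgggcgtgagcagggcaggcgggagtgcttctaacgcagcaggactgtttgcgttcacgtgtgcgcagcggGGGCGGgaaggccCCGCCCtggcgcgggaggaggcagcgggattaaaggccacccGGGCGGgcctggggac
Slc26a3 (chr12:31438069-31438218): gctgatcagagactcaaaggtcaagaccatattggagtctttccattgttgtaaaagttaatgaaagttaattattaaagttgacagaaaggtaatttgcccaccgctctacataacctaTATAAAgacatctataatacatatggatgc
Scnn1b (chr7:121864888-121865037): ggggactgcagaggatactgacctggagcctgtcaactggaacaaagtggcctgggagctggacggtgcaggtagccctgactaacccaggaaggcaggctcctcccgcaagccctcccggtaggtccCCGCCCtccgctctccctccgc
Scnn1g (chr7:121734329-121734478): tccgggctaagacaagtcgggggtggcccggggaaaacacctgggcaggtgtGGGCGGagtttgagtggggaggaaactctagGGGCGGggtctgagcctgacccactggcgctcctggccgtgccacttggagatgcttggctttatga
In the 250 bases before the start, Slc9a3 held 3 GC boxes and no TATA box. Slc26a3 held 1 TATA box and no GC box. Scnn1b and Scnn1g held 1 and 2 GC boxes, and neither held a TATA box. The window of Cftr, which is not shown, held 6 GC boxes and no TATA box, with 76.4% G and C. A GC box was present in 32.7% and a TATA box in 12.4% of the 32851 windows of this length. The share of G and C was 67.6% for Slc9a3, 60.8% for Scnn1b and 65.2% for Scnn1g, against 38.8% for Slc26a3 and a median of 52.4% over all windows. The hexamer TGTTCT, the core letters bound by steroid receptors, was searched on both strands. It was found in none of these 5 windows, while 16.1% of all windows held it. A match describes letters, and neither a match nor its absence shows whether a factor binds.

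The sodium-hydrogen exchanger NHE3 had higher RNA levels in IL10-/- but did not pass the threshold. Slc9a3 (ENSMUSG00000036123; plus strand of GRCm38 chromosome 13, from 74121457 to 74169442) was at 136, 119 and 74.8 FPKM in IL10-/- libraries 1 to 3, against 22.8, 9.81 and 19.1 FPKM in WT libraries 1 to 3. Every IL10-/- library lay above every WT library, and the lowest IL10-/- value was 3.28 times the highest WT value. The means were 110 ± 31.7 FPKM in IL10-/- and 17.2 ± 6.67 FPKM in WT (SD, n = 3 each), a ratio of 6.38, resting on 26445 reads in IL10-/- and 4093 reads in WT. The log2 fold change was 2.64 (SE 0.41, unadjusted p = 0.00038), and the adjusted p of 0.0752 in limma missed the threshold. It lay between 2.30 and 2.89 when any 1 library was left out. Only the fit with a weight per library called Slc9a3 (log2 fold change 2.28, adjusted p = 0.0177), with adjusted p between 0.0177 and 0.71 over the 21 alternatives. That fit gave WT library 1 a weight of 2.76 and WT library 2 one of 0.198.

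The partner exchanger NHE2 spread widely among the WT libraries. Slc9a2 (ENSMUSG00000026062; plus strand of chromosome 1, from 40680574 to 40769273) was at 35.1, 34.2 and 23.2 FPKM in IL10-/- libraries, against 15.6, 104 and 13.7 FPKM in WT libraries. WT library 2 lay above all others and WT libraries 1 and 3 below all others, so the groups overlapped (log2 fold change 0.09, SE 0.75, adjusted p = 0.983). Without WT library 2 the log2 fold change was 1.00, and without WT library 3 it was -0.41. The FPKM ratio of Slc9a3 to Slc9a2 was 3.88, 3.47 and 3.23 in IL10-/- libraries, against 1.46, 0.0943 and 1.39 in WT libraries. The exchanger mix within a library thus leaned further to Slc9a3 in all 3 IL10-/- libraries than in any WT library.

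**Figure D1:**
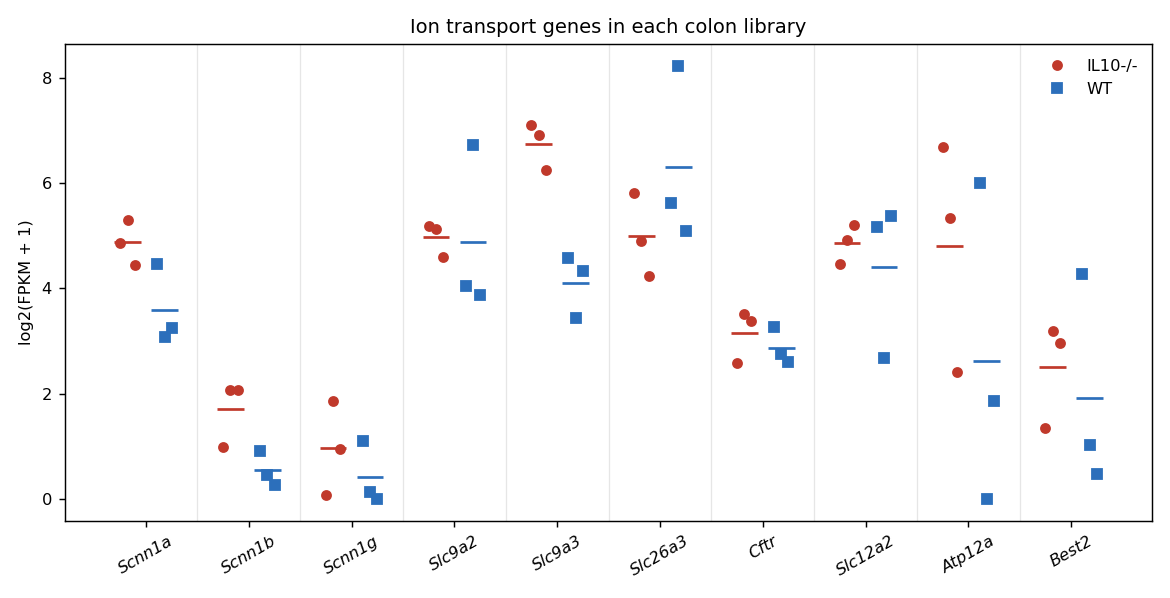
Level of each of the 10 ion transport genes as log2(FPKM + 1), with 1 point per library (IL10-/- circles left, WT squares right, libraries 1 to 3 from left to right) and a line at the group mean. The groups do not overlap for Slc9a3 and Scnn1b and overlap for the other genes. The WT points of Slc9a2, Slc12a2 and Best2 reach both above and below all IL10-/- points.

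The chloride-bicarbonate exchanger had the one negative fold change among the 9 tested genes. Slc26a3 (ENSMUSG00000001225; plus strand of chromosome 12, from 31390871 to 31473917) was at 55.3, 29.0 and 17.9 FPKM in IL10-/- libraries, against 47.9, 299 and 33.0 FPKM in WT libraries. WT library 2 held the highest value by far, and the other WT values fell among those of IL10-/-. The means were 34.1 ± 19.2 FPKM in IL10-/- and 127 ± 149 FPKM in WT (SD, n = 3 each). The log2 fold change of -1.32 (SE 0.86, adjusted p = 0.65 in limma) shrank to -0.36 without WT library 2 and was -1.93 without WT library 3. The window shown above sits at the RefSeq start, inside the longer gene span given by the table.

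The apical exchangers were also set against each other within each library. The FPKM ratio of Slc9a3 to Slc26a3 was 2.46, 4.10 and 4.18 in IL10-/- libraries, against 0.475, 0.0328 and 0.579 in WT libraries. Slc9a3 was the higher of the pair in every IL10-/- library and the lower in every WT library, also in the WT libraries other than 2. The log2 ratio differed by 4.06 (exact two-sided permutation p = 0.1). Reads were present in all 6 libraries for 8 of the 10 genes, which gives 28 such pairs. The groups did not overlap for 8 pairs, of which 5 held Slc9a3, and all 8 had an exact p of 0.1 and 0.35 after Benjamini-Hochberg adjustment over the 28 pairs. For single tested genes the groups did not overlap in 16.7%, 8.84% with IL10-/- above WT and 7.89% below. The share for ratios of gene pairs over all tested genes was not computed. The 28 pairs also reuse 8 genes, so the share for single genes is not a reference for them.

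The ENaC subunits had higher means in IL10-/- but none was called. Scnn1a (ENSMUSG00000030340; plus strand of chromosome 6, from 125320659 to 125344943), the subunit required for channel activity, was at 28.1, 38.4 and 20.9 FPKM in IL10-/- libraries, against 20.9, 7.46 and 8.56 FPKM in WT libraries. IL10-/- library 3 and WT library 1 met at 20.9 FPKM, so the groups just overlapped. The means were 29.1 ± 8.79 FPKM in IL10-/- and 12.3 ± 7.47 FPKM in WT (SD, n = 3 each), with a log2 fold change of 1.27 (SE 0.43, unadjusted p = 0.0227, adjusted p = 0.432 in limma).

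The beta and gamma subunits, whose RNA aldosterone induces in the rodent distal colon, had far lower levels. Scnn1b (ENSMUSG00000030873; plus strand of chromosome 7, from 121865038 to 121918514) was at 0.993, 3.21 and 3.19 FPKM in IL10-/- libraries, against 0.871, 0.374 and 0.206 FPKM in WT libraries. All 3 IL10-/- values lay above all 3 WT values, IL10-/- library 1 by a small margin. These rested on 33, 133 and 137 reads in IL10-/- libraries and on 37, 13 and 7 reads in WT libraries, and the log2 fold change was 1.17 (SE 0.37, unadjusted p = 0.0173, adjusted p = 0.396 in limma). Scnn1b passed the filter on mean FPKM through its IL10-/- values, as its WT mean was 0.483 FPKM. It shares its locus with Cog7 on the other strand, which was at 2.09, 2.75 and 3.47 FPKM in IL10-/- and 1.34, 2.79 and 2.33 FPKM in WT. Since no strand setting is given, reads of the shared stretch cannot be assigned to either gene.

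Scnn1g (ENSMUSG00000000216; plus strand of chromosome 7, from 121734479 to 121768475) was at 0.0530, 2.64 and 0.943 FPKM in IL10-/- libraries, against 1.14, 0.101 and 0 FPKM in WT libraries. Its mean was under the filter, so it was not tested. It rested on 2, 124 and 46 reads in IL10-/- libraries and on 55, 4 and 0 reads in WT libraries, where 0 reads allow up to 0.0776 FPKM. The groups overlapped, with both a high and a near-zero library under each label. Scnn1a exceeded Scnn1b 28.3, 11.9 and 6.54 times in IL10-/- libraries and 24.0, 19.9 and 41.6 times in WT libraries, so the alpha subunit RNA was in excess of beta in all 6.

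The profiles of 3 tested genes came nearest to that of Scnn1b across the 6 libraries, by the root-mean-square difference of centred log2(FPKM + 1) values over 7078 genes. They were Itgam (0.08), Cd300lf (0.09) and Il7r (0.12), all genes of leukocytes. Like Scnn1b, Cd300lf and Il7r passed the filter only through their IL10-/- values. In WT libraries 1 to 3 Cd300lf was at 0.686, 0.206 and 0.105 FPKM and Il7r at 0.532, 0.341 and 0.149 FPKM. Genes that pass in this way are high in IL10-/- by selection, and a link of Scnn1b to leukocytes was not tested. Itgam was at 1.97, 4.35 and 5.08 FPKM in IL10-/- libraries, against 1.74, 0.874 and 0.708 FPKM in WT libraries. The 10 leukocyte markers summed to 398, 421 and 439 FPKM in IL10-/- and to 193, 21.1 and 39.9 FPKM in WT. Their mean log2(FPKM + 1), which weights the 10 genes equally, was 2.99, 2.83 and 2.86 in IL10-/- libraries, against 3.12, 1.30 and 1.80 in WT libraries, so on that scale WT library 1 was the highest of the 6. The 3 genes nearest to Slc26a3, over 3046 genes, were Entpd5 (0.19), Ugdh (0.25) and Oas3 (0.27), each with its highest value in WT library 2, at 133, 156 and 71.8 FPKM.

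**Figure D2:**
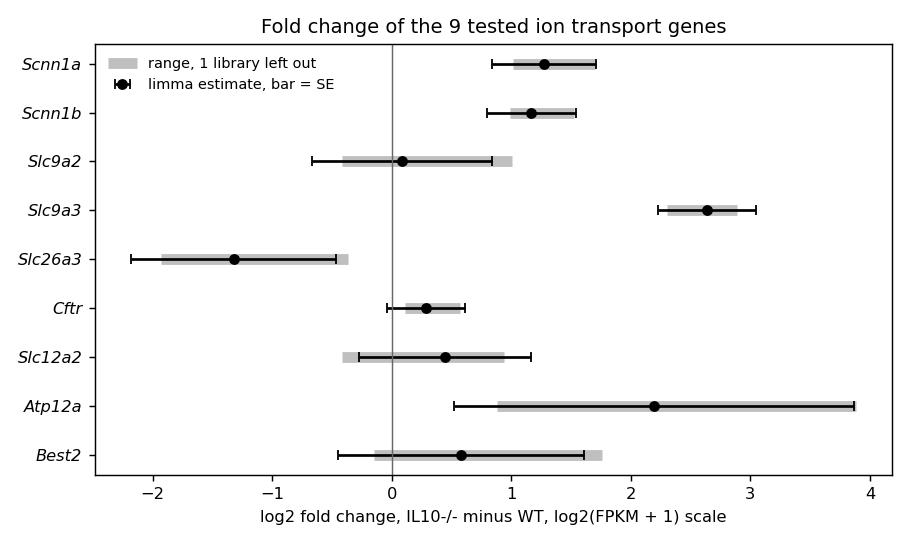
Log2 fold change of the 9 tested genes, IL10-/- minus WT on the log2(FPKM + 1) scale (point, limma estimate; black bar, SE; grey band, range of the estimate when 1 of the 6 libraries is left out). The grey bands of Scnn1a, Scnn1b, Slc9a3, Slc26a3, Cftr and Atp12a stay on one side of 0, and those of Slc9a2, Slc12a2 and Best2 cross it.

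The secretory pair had small mean differences between the genotypes. Cftr (ENSMUSG00000041301; plus strand of chromosome 6, from 18170687 to 18322768) was at 5.02, 10.4 and 9.45 FPKM in IL10-/- libraries, against 8.63, 5.74 and 5.10 FPKM in WT libraries. It was the steadiest of the 10 genes, with its highest value 2.06 times its lowest (log2 fold change 0.28, SE 0.33, adjusted p = 0.816 in limma). Slc12a2 (ENSMUSG00000024597; plus strand of chromosome 18, from 57878678 to 57946821) was at 20.9, 29.1 and 35.6 FPKM in IL10-/- libraries, against 34.7, 5.39 and 40.7 FPKM in WT libraries. WT library 2 alone was low, and the other 5 libraries lay between 20.9 and 40.7 FPKM. The log2 fold change was 0.45 (SE 0.72, adjusted p = 0.871), and it turned to -0.42 without WT library 2. In that library Slc12a2 was lowest and Slc26a3 highest of all 6.

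Atp12a and Best2 varied widely among libraries of one genotype. Atp12a (ENSMUSG00000022229; plus strand of chromosome 14, from 56365068 to 56388550) was at 102, 39.4 and 4.34 FPKM in IL10-/- libraries, against 63.1, 0 and 2.62 FPKM in WT libraries. WT library 2 had 0 reads, which allows up to 0.0566 FPKM. Each genotype thus held both high and low libraries, and the log2 fold change of 2.19 (SE 1.68, adjusted p = 0.706 in limma) ranged from 0.88 without WT library 2 to 3.88 without WT library 1. Hoxb13, a homeobox gene of the distal hindgut, was at 25.8, 22.2 and 6.03 FPKM in IL10-/- libraries, against 58.4, 0 and 8.52 FPKM in WT libraries. Both genes put the libraries of each genotype in the same order, and both were at 0 reads in WT library 2. Hoxb13 was chosen after its values were seen.

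Best2 (ENSMUSG00000052819; minus strand of chromosome 8, from 85007202 to 85014531) was at 1.54, 8.09 and 6.83 FPKM in IL10-/- libraries, against 18.4, 1.02 and 0.384 FPKM in WT libraries. WT library 1 was the highest and the other WT libraries the lowest, so the WT values spanned those of IL10-/- (log2 fold change 0.58, SE 1.03, adjusted p = 0.885 in limma). The sign turned without WT library 3 (-0.15). The 8 goblet cell markers, among them Muc2 and Tff3, summed to 4225, 7670.5 and 7746 FPKM in IL10-/- libraries and to 6018, 2733 and 2345 FPKM in WT libraries. The libraries low in Best2 among WT, 2 and 3, were also those with the lowest goblet sums of all 6.

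**Figure D3:**
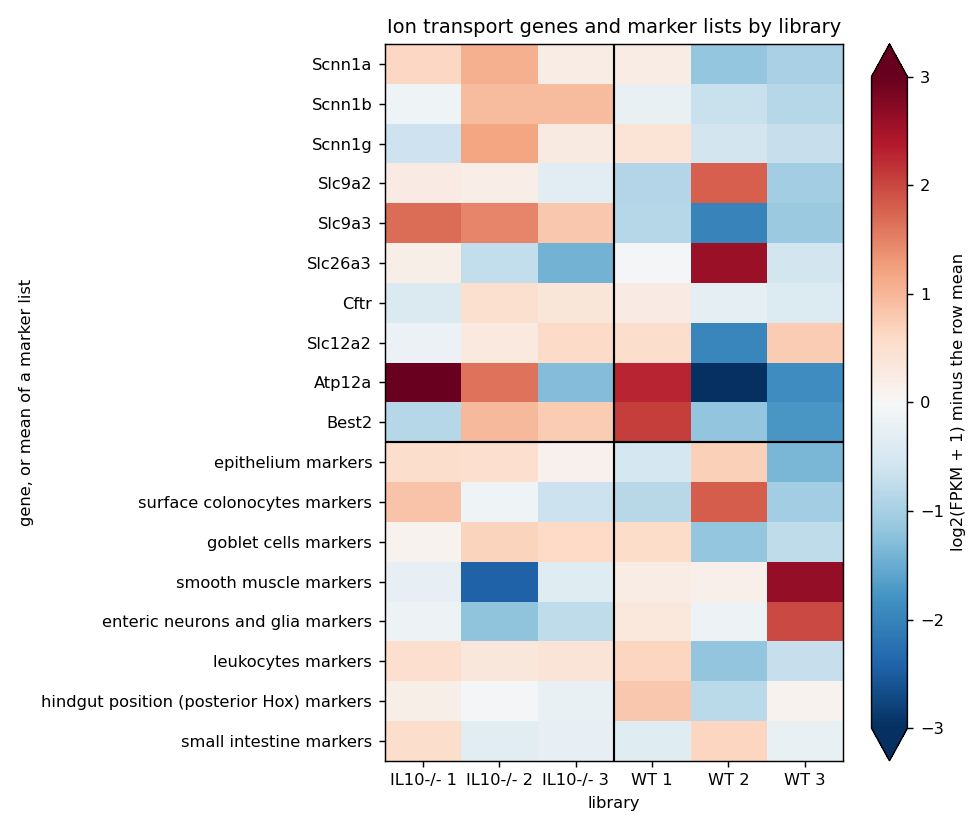
Log2(FPKM + 1) of each ion transport gene (upper block) and the mean of each marker list (lower block) in the 6 libraries, minus the row mean, with IL10-/- libraries left of WT. WT library 2 is high in Slc26a3, Slc9a2 and surface colonocyte markers and low in Slc12a2, Atp12a and posterior Hox genes, and WT library 3 is high in smooth muscle markers.

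The order of levels differed by genotype. By mean FPKM the IL10-/- order was Slc9a3, Atp12a, Slc26a3, Slc9a2, Scnn1a, Slc12a2, Cftr, Best2, Scnn1b and Scnn1g. In WT it was Slc26a3, Slc9a2, Slc12a2, Atp12a, Slc9a3, Scnn1a, Best2, Cftr, Scnn1b and Scnn1g. Neighbours in these orders overlapped in their library values, apart from Slc12a2 above Cftr in IL10-/- and Cftr above Scnn1b in WT. Slc9a3 was first of the 10 in each IL10-/- library, and at rank 4, 3 and 3 in WT libraries 1 to 3. It made up 35.4%, 37.9% and 37.9% of the summed FPKM of the 10 genes in IL10-/- libraries, against 9.73%, 2.27% and 15.5% in WT libraries. The sum itself overlapped, at 385, 313 and 197 FPKM in IL10-/- and 234, 433 and 123 FPKM in WT.

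Because most of these genes are epithelial, each was also expressed relative to the mean of the 12 epithelial markers in the same library, as a difference of log2(FPKM + 1) values. Slc9a3 was then at -1.97, -2.16 and -2.44 in IL10-/- libraries, against -3.45, -5.82 and -2.86 in WT libraries. The groups still did not overlap, and the difference was 1.85 (exact two-sided permutation p = 0.1). Without WT library 2 it was 0.96. Slc26a3 was at -3.26, -4.15 and -4.45 in IL10-/- libraries, against -2.41, -1.02 and -2.10 in WT libraries. Relative to epithelial RNA all 3 IL10-/- values lay below all 3 WT values, with a difference of -2.11 (exact p = 0.1), whereas the FPKM values overlapped. The groups of the other 8 genes overlapped on this scale, with differences of 0.49 for Scnn1a and 0.38 for Scnn1b. Without WT library 2 those differences were -0.32 for Scnn1a and -0.21 for Scnn1b. That of Scnn1b was 1.34 and 1.59 with pseudocounts of 0.1 and 0.01.

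**Figure D4:**
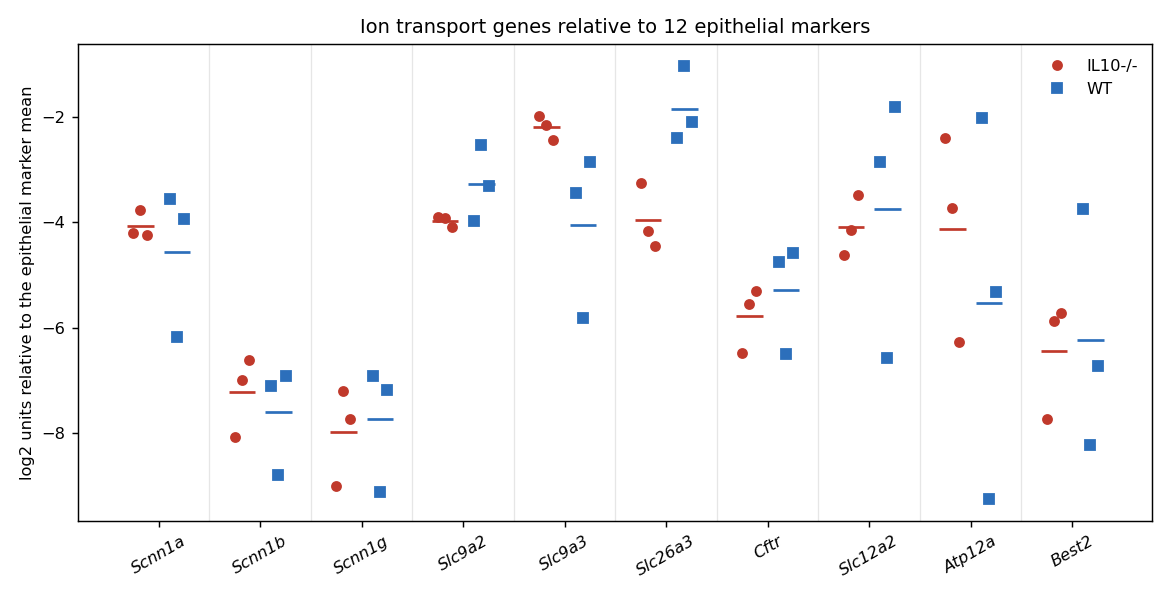
Level of each gene minus the mean of 12 epithelial markers in the same library, in log2(FPKM + 1) units (IL10-/- circles left, WT squares right, lines at group means). IL10-/- points lie above WT points for Slc9a3 and below them for Slc26a3, and overlap for the other 8 genes.

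Around the 10 genes, 76 further genes of colonic ion transport were listed in 6 groups, of which 75 were in the table and 55 were tested. Of these 0 were called, 4 had higher and 3 lower values at an unadjusted p under 0.05, and their median log2 fold change was -0.13, against 0.04 over all tested genes. Over the 9 tested ion transport genes above the median was 0.58. Of these, 8 had positive fold changes, as did 6853 of the 12668 tested genes and all 12 epithelial markers, whose median was 0.83. The groups did not overlap for 2 of the 9, Slc9a3 and Scnn1b, both higher (8.84% of all tested genes), and Scnn1b was tested only through its IL10-/- values.

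Among 11 tested ENaC and mineralocorticoid regulators, 4 had positive and 7 negative fold changes (median -0.15). Cnksr3, a scaffold that supports ENaC activity, was at 1.65, 0.630 and 0.639 FPKM in IL10-/- libraries, against 2.34, 4.84 and 3.02 FPKM in WT libraries (log2 fold change -1.16, SE 0.32, adjusted p = 0.327 in limma). Its IL10-/- mean was 0.974 FPKM, so it was tested only through its WT values. Furin and Prss8, proteases that cleave and activate ENaC, had log2 fold changes of 0.85 and 0.72. Tsc22d3, a steroid-induced gene, had one of -0.63, which was -0.23 without WT library 2. With the smooth muscle marker mean as a covariate, those of Furin and Prss8 were 0.31 and 0.16. The aldosterone-induced kinase Sgk1 was at 17.8, 22.5 and 18.7 FPKM in IL10-/- libraries, against 6.48, 112 and 11.1 FPKM in WT libraries, and the mineralocorticoid receptor gene Nr3c2 at 6.87, 6.69 and 3.54 against 4.44, 14.9 and 3.37 FPKM. Sgk1 and Nr3c2 were thus highest in WT library 2, where Scnn1a had its lowest value, and were chosen after their values were seen.

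Among 12 tested exchanger partners and related exchangers, 6 fold changes were positive and 6 negative (median -0.13). The 4 with the smallest p were Slc4a4 and Slc4a7, sodium-bicarbonate cotransporters, Slc9a3r2, a scaffold that binds NHE3, and Chp2, a cofactor of sodium-hydrogen exchangers, with log2 fold changes of -0.51, -0.41, -0.47 and -0.46. Their adjusted p lay between 0.666 and 0.855 in limma. Without WT library 2 the values of Slc4a7 and Chp2 turned to 0.16 and 0.18, and that of Slc4a4 was -0.27. Slc9a3r2 turned to 0.09 with the epithelial and to 0.27 with the smooth muscle marker mean as a covariate.

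The chloride list held the largest fold change. Clca4b, of the CLCA family linked to calcium-activated chloride currents, was at 872, 1386 and 593 FPKM in IL10-/- libraries, against 24.3, 2.81 and 0.207 FPKM in WT libraries. Its log2 fold change was 7.52 (SE 1.05, adjusted p = 0.0687 in limma), above the threshold. The threshold was passed with TPM scaling (adjusted p = 0.0228), with a weight per library (0.0229) and without WT library 1 (0.0248), and in none of the rest of its 21 alternatives, over which the adjusted p reached 0.641. Its close relative Clca4a, chosen after its values were seen, was at 153, 189 and 60.1 FPKM in IL10-/- libraries, against 36.2, 924 and 72.8 FPKM in WT libraries. Related sequences may share reads, so the separate values of the pair are uncertain. Clcn2, a chloride channel, was at 60.4, 61.2 and 47.2 FPKM in IL10-/- libraries, against 26.6, 45.7 and 12.5 FPKM in WT libraries, with no overlap (log2 fold change 1.13, SE 0.47, adjusted p = 0.49). It was 0.66 without WT library 3, the library with the least epithelial RNA, and 0.46 with the epithelial marker mean as a covariate. Ano1, a calcium-activated chloride channel of pacemaker and epithelial cells, had a log2 fold change of -0.77, which turned to 0.13 with that covariate.

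Potassium channels and the sodium pump set the driving force for these transporters. Of 6 tested potassium channel genes 4 fold changes were positive (median 0.11). They were led by the background potassium channel genes Kcnk1 and Kcnk6, at 1.04 and 0.65, while Kcne3, a subunit that opens the basolateral channel Kcnq1, and Kcnk5 were at -0.41 and -0.32. Kcne3 turned to 0.05 without WT library 1, to 0.01 without WT library 3 and to 0.62 with the epithelial covariate, and Kcnk5 turned to 0.65 without WT library 2. With the epithelial covariate Kcnk1 and Kcnk6 were at 0.37 and 0.04. Of 9 tested sodium-potassium ATPase genes 4 were positive and 5 negative (median -0.46). The FXYD regulators split, with log2 fold changes of 0.89 for Fxyd3 and -1.88 for Fxyd6. Fxyd6 peaked in WT library 3, at 24.8 FPKM, the library with the most smooth muscle RNA, and its log2 fold change was -1.19 without that library. Among 8 tested receptor and second messenger genes 4 fold changes were positive (median 0.01), and Ptger4, P2ry2, Adcy6 and Gucy2c had log2 fold changes of -0.46, 0.65, -0.18 and 0.32. P2ry2 ranged from 0.24 without WT library 1 to 1.41 without WT library 2 and was -0.27 with the epithelial covariate. Adcy6 turned to 0.08 without WT library 1, and Gucy2c to -0.19 without WT library 3.

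**Figure D5:**
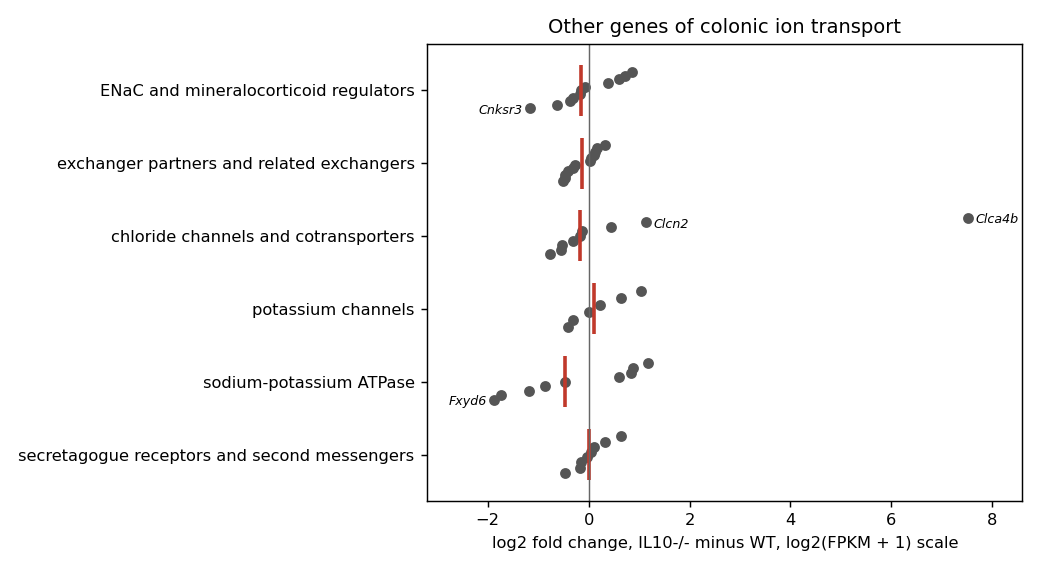
Log2 fold change, IL10-/- minus WT on the log2(FPKM + 1) scale, of the 55 tested genes in 6 lists of colonic ion transport (1 point per gene, spread vertically for view; red line, list median). The list medians lie between -0.46 and 0.11, and Clca4b lies far to the right of all other points, at 7.52.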

How the data were processed

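The authors deposited 1 table of FPKM values per gene, with names, coordinates and lengths per the file headers. Bowtie 0.12.2 and the builds hg38 and mm8 appear, without roles, in the submitters' processing notes. The sources used here do not give the counting tool, strand setting or FPKM scaling. Of 54409 gene identifiers found in GENCODE M21, 98.3% had identical coordinates, all 10 ion transport genes included, so coordinates are given as GRCm38. Reads were recovered by multiplying FPKM by gene length and dividing by the smallest such product of the library, which gave whole numbers (tolerance 0.01) for 100% of values above 0. Read numbers and floors of 3 reads cover counting error only. No pair of libraries agreed within sampling noise (chi-square per gene of 43.6 or more).

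Groups came from sample titles. Values were log2(FPKM + 1), pseudocount 1, tested with limma 3.58.1 in R 4.3.3 (eBayes with the mean trend, no replicate block) over 12668 genes with a mean of at least 1 FPKM, with Benjamini-Hochberg adjustment and a threshold of 0.05. The fit was tested on simulated data. Exact permutation tests and plots were made in Python 3.11.15 with numpy 2.4.6, scipy 1.17.1, pandas 2.3.3 and matplotlib 3.10.9. Besides the 10 genes, the text names from each of 6 lists the genes called, or else up to 4 with the smallest p. Some of these are not reported here. Genes and lists were chosen with earlier results of these data known. Alternatives were 2 pseudocounts, 3 filters, 3 scalings, 2 eBayes settings, a weight per library, a replicate block, 6 left-out libraries, 2 marker covariates and, added after seeing the data, voom on recovered reads. Planned count tests on recovered reads were left out, because the deposited unit is FPKM.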

Additional observations from a re-analysis of the deposited data

How the results depend on the processing

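The number of ion transport genes called was 0 in every alternative but the weight per library, where it was 1, Slc9a3. The fold changes of Scnn1a, Slc9a3 and Slc26a3 kept their sign in 21 of 21 alternatives and that of Scnn1b in 20 of 20. Cftr and Atp12a kept it in 20 of 21, Slc12a2 in 19, Best2 in 18 and Slc9a2 in 16. The 3 filters, the 2 eBayes settings and the replicate block cannot change a fold change, so their agreement in these counts was fixed in advance. All alternatives reuse the same libraries. Over all genes the count of 23 moved to 9 with a pseudocount of 0.01, 4 with no filter, 46 with TPM, 331 with a weight per library, 7 with the replicate block, 1 with the smooth muscle covariate and 2 with voom on recovered reads. It lay between 4 and 29 with 1 library left out. The count among the pathway lists was 1 with TPM and 1 with a weight per library, and between 0 and 1 with 1 library left out; the gene was Clca4b each time. The cause was not tested. TPM scaling moved the median log2 fold change of all genes to 0.15, against 0.04 as deposited. Relative to the epithelial markers, the difference of Scnn1b was 1.34 and 1.59 with pseudocounts of 0.1 and 0.01, against 0.38. Deviations of same-numbered libraries correlated at -0.15, 0.18 and 0.40 across genes, which are not independent replicates. Libraries with different numbers were not correlated, so these values do not show whether the replicate numbers pair the libraries. The replicate block called 0 ion transport genes. Groups of 3 libraries are too small for a search for single outlying samples. Low read numbers limit Scnn1b and Scnn1g most.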

Other observations

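Slc26a3 and Slc9a2 kept a steady proportion in the WT libraries although each varied several-fold among them. The FPKM ratio of Slc26a3 to Slc9a2 was 1.57, 0.848 and 0.772 in IL10-/- libraries 1 to 3, against 3.08, 2.87 and 2.40 in WT libraries 1 to 3. The highest Slc9a2 value was 7.57 times the lowest over all libraries, and the highest Slc26a3 value 16.7 times the lowest. The ratio was lower in all 3 IL10-/- libraries than in any WT library, including WT library 2, where both genes peaked. The log2 ratio differed by 1.45 with Slc9a2 on top (exact two-sided permutation p = 0.1, 0.35 after adjustment over 28 pairs). This pair was singled out after its values were seen.

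Dhrs9, a retinol dehydrogenase gene in the list of surface colonocyte markers, was at 26.8, 33.4 and 19.2 FPKM in IL10-/- libraries, against 2.68, 9.13 and 1.79 FPKM in WT libraries (log2 fold change 2.51, SE 0.50, adjusted p = 0.171 in limma). Like Slc9a3, its groups did not overlap either as FPKM or relative to the epithelial markers, where the difference was 1.73. The 8 surface markers split, with 4 positive and 4 negative fold changes. As FPKM the groups did not overlap for 1 in the higher direction, Dhrs9, and for 1 in the lower direction. Dhrs9 was chosen after its values were seen.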
